A study of Mus musculus with 24 samples.

Results

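In mouse limb buds that had lost 1 copy of Rps6, 36 transcripts carried more ribosome footprints while their RNA stayed nearly level, and the footprints of each remained high relative to its RNA where p53 was absent as well. These 36 members were chosen by their measured values alone from the 21960 transcripts of the deposited table. A member had a mean of at least 50 CPM (a count scaled to a common library total) in both the RNA and the ribosome-protected fragment (RPF) libraries of the control genotype. With Trp53 intact, its log2 ratio of Rps6 het to Rps6 WT, taken on group mean CPM plus 0.5, was at least 0.3 in RPF and within 0.2 of 0 in RNA. The RPF ratio less the RNA ratio was at least 0.25 in Trp53 WT and at least 0.1 in Trp53 null.

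Forelimbs were taken from mouse embryos at stage E10.5, and every embryo carried a floxed Rps6 allele. The control genotype, Rps6lox/+;Trp53+/+, had no Cre and is called Rps6 WT, Trp53 WT or the control; Prx1Cre;Rps6lox/+;Trp53+/+ is called Rps6 het, Trp53 WT. The same pair without Trp53 was Rps6lox/+;Trp53-/-, called Rps6 WT, Trp53 null, and Prx1Cre;Rps6lox/+;Trp53-/-, called Rps6 het, Trp53 null. Each genotype had 3 pools of 2 embryos, and each pool gave an RNA and an RPF library, 24 libraries in all. Prx1Cre acts in the mesenchyme of the limb bud, so that limb cells of other origin keep both Rps6 alleles, whereas the Trp53 null allele is in all cells of the embryo. In such bulk tissue, fewer cells of a type and less RNA per cell cannot be told apart.

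A ribosome protects the stretch of mRNA on which it sits from RNase, so RPF counts follow how many ribosomes occupy a coding sequence, and their ratio to RNA counts is used as a measure of translational efficiency (TE). Rps6 is a protein of the small ribosomal subunit. When ribosome production falters, free ribosomal proteins bind Mdm2, the ubiquitin ligase that keeps p53 low, and p53 accumulates. Deleting Trp53 therefore separates what a shortage of small subunits does without p53 from what p53 adds. The transcripts are known here only by Ensembl ID: none of the 21960 IDs had an entry in the tables of gene names used, so neither the gene names and functions of the members nor the levels of Rps6, of Trp53 and of cell type markers are given.

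The thresholds narrowed the table in steps. The level threshold left 3382 transcripts, the RPF ratio 105, the RNA ratio 49, and the difference of both ratios in Trp53 WT 36. The threshold in Trp53 null then removed none of these 36. It was met by 227 of the 3382 transcripts above the level threshold, or 6.71%, and 734 of the 3382, or 21.7%, lay as far on the other side, at -0.1 or below. The Trp53 WT and the Trp53 null ratios come from different libraries, although the thresholds were proposed with both in view, so the shares are given as a description.

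Values near the thresholds show how close other transcripts came to being members. In RPF the lowest members had ratios of 0.32, 0.34 and 0.34, and 13 transcripts missed this threshold alone, the nearest at 0.298, 0.289 and 0.288. In the RPF ratio less the RNA ratio in Trp53 WT, the lowest members had 0.25, 0.26 and 0.27, and 8 transcripts missed it alone, the nearest at 0.245, 0.220 and 0.206. No transcript failed on the RNA limit alone, and the largest RNA ratio of a member was 0.13 in size. In Trp53 null the lowest members, at 0.15, 0.18 and 0.21, stood above the threshold of 0.1. Most transcripts that failed on a single threshold, 100 in number, failed on the level; the lowest members reached 51.8, 79.1 and 90.0 CPM, and the nearest transcripts outside 26.5, 26.4 and 25.2 CPM.

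The members were well covered. Their control RPF level ran from 51.8 to 4446 CPM with a median of 831. Their control RNA level ran from 120.5 to 4477 CPM with a median of 673. The smallest count of any member was 445 in an RPF library and 1836 in an RNA library. Levels are not per length, because the table's name gives RPF counts over the coding sequence and RNA counts over the whole transcript, so they are compared only within a transcript.

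In Trp53 WT, the values that chose the members were as follows. The RPF log2 ratio of Rps6 het to Rps6 WT had a median of 0.40 (0.32 to 0.68), against -0.05 over the 3382 transcripts. The RNA ratio had a median of 0.03 (-0.11 to 0.13), being above 0 in 26 members and below 0 in 10. The difference, RPF less RNA, had a median of 0.36 (0.25 to 0.57). In Trp53 null the members' RPF ratio was above 0 in 36 of 36, with a median of 0.23 (0.11 to 0.38). Their RNA ratio lay on the other side of 0, with a median of -0.07 and 33 of 36 below 0, while the median of the 3382 transcripts was 0.03. RPF less RNA came to a median of 0.29 (0.15 to 0.47), against -0.04 over the 3382.

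**Figure D1:**
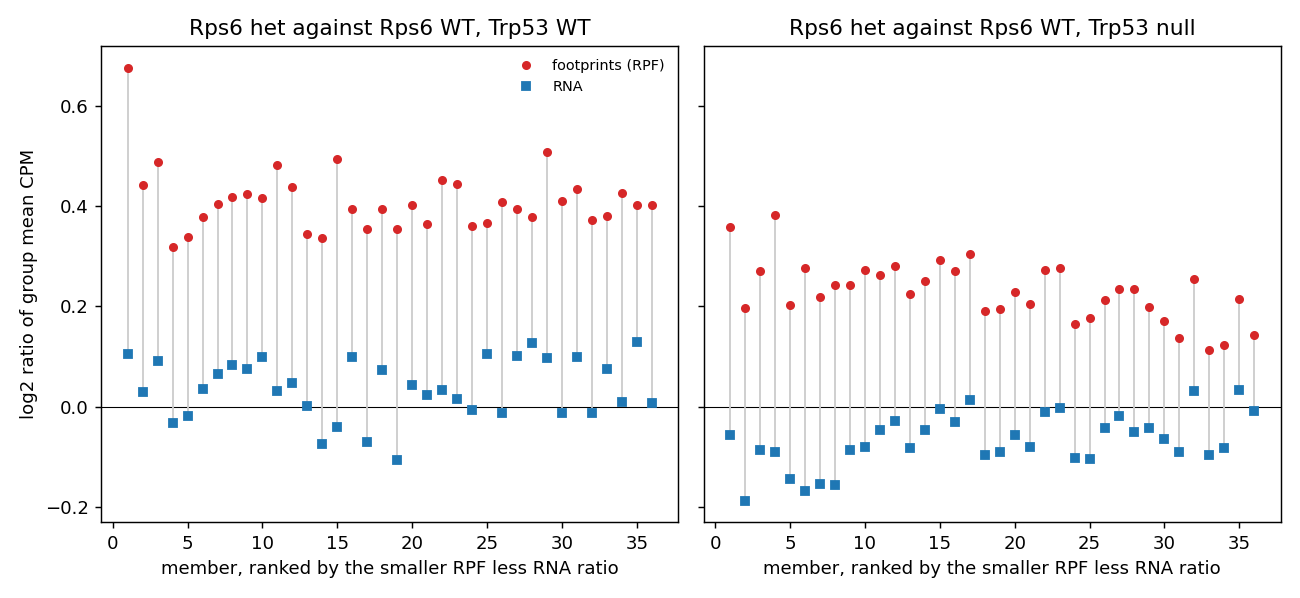
Each column is 1 of the 36 members, ranked by the smaller of its 2 RPF less RNA ratios, and the y axis is the log2 ratio of group mean CPM, Rps6 het to Rps6 WT, for RPF (red) and RNA (blue), with Trp53 WT on the left and Trp53 null on the right. The gap between red and blue is present in every column of both panels, while both colours sit lower in Trp53 null (medians 0.40 and 0.23 for RPF, 0.03 and -0.07 for RNA).

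In the members as chosen, the gap between footprints and RNA was nearer in size between the Trp53 backgrounds than the footprint gain itself. Within a member, the RPF ratio in Trp53 null was a median of 56.5% of that in Trp53 WT, and it was the larger of the pair in 1 member. RPF less RNA in Trp53 null was a median of 75.9% of that in Trp53 WT, and it was the larger in 8 members. The thresholds asked for high values of both in Trp53 WT. In Trp53 null they asked for a gap of at least 0.1 and set no limit on RPF. The percentages therefore describe the choice of members, and the difference between them was not tested. Which members had the widest gap was only loosely shared: Pearson's r of RPF less RNA between Trp53 WT and Trp53 null was 0.11 across the 36 members, whose range the thresholds cut short. It was 0.23 across the 3382 transcripts and 0.12 without the members.

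The pools can be read one by one through the share of a library's counts that fell on the members. In RPF this was 3.21%, 3.31% and 3.21% in the 3 control pools, and 4.44%, 4.39% and 4.05% in the Rps6 het pools with Trp53. It was 3.21%, 3.33% and 3.33% in the Trp53 null pools with both Rps6 copies, and 3.73%, 3.88% and 3.87% in those with 1 copy. The Rps6 het pools lay above the Rps6 WT pools in both backgrounds. The Trp53 null het pools lay between the Rps6 WT pools and the Trp53 WT het pools without overlap. The thresholds used the means of these same libraries, so a higher RPF share in Rps6 het is favoured by the choice of members. In RNA all 12 libraries fell between 3.04% and 3.31%. The RNA share averaged 3.09% ± 0.04 (SD, n = 3) for the control and 3.17% ± 0.05 (SD, n = 3) for Rps6 het with Trp53. Without Trp53 it averaged 3.22% ± 0.10 (SD, n = 3) for Rps6 WT and 3.09% ± 0.02 (SD, n = 3) for Rps6 het.

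**Figure D2:**
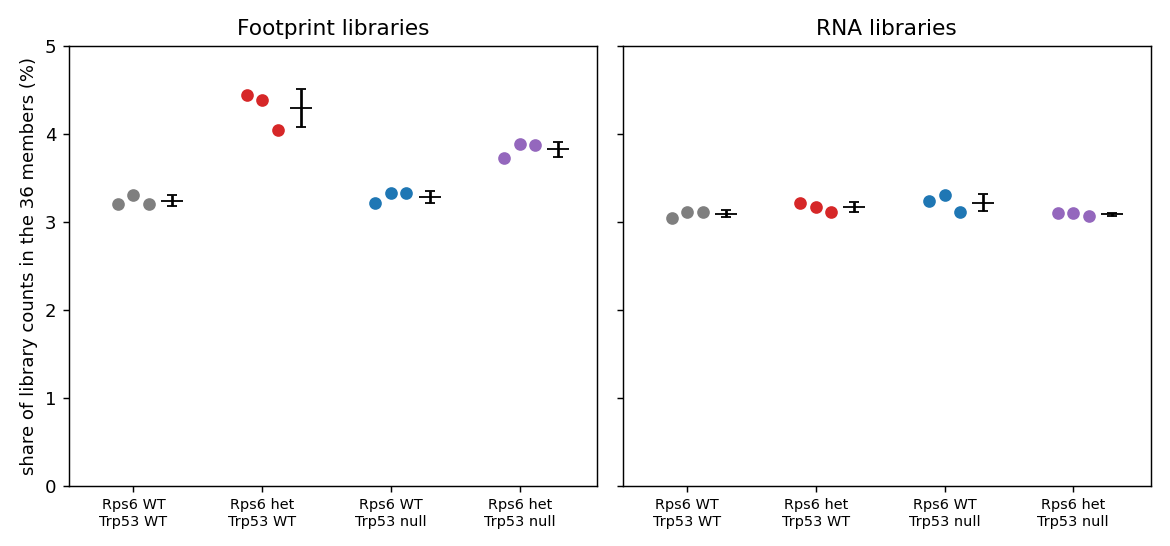
The y axis is the share of all counts of a library (%) that fell on the 36 members, for the RPF libraries (left) and the RNA libraries (right) of the 4 genotypes; points are pools, and the bar gives the mean with SD of 3 pools. The RPF share is highest in Rps6 het, Trp53 WT (4.05% to 4.44%) and next in Rps6 het, Trp53 null (3.73% to 3.88%), while the RNA shares stay between 3.04% and 3.31%.

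Because RPF and RNA of a pool came from the same lysates, the median log2 ratio of RPF to RNA CPM over the members was also taken in each pool. With Trp53 it was -0.01, 0.05 and -0.03 in the control pools, and 0.41, 0.41 and 0.33 in the Rps6 het pools. Without Trp53 it was -0.04, -0.01 and 0.03 in the Rps6 WT pools, and 0.23, 0.31 and 0.27 in the Rps6 het pools. The 6 Rps6 WT pools lay close to 0 with or without Trp53, and all 6 Rps6 het pools lay above them. The thresholds were set on the group means of these libraries, so this separation describes the members and tests nothing. The median of the 3382 transcripts moved little by comparison, with group means of 0.11 and 0.10 in Trp53 WT and 0.15 and 0.12 in Trp53 null. Member by member, all 3 Rps6 het pools exceeded all 3 Rps6 WT pools in this ratio for 36 of 36 in Trp53 WT (9.05% of the 3382) and for 34 of 36 in Trp53 null (4.23% of the 3382).

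**Figure D3:**
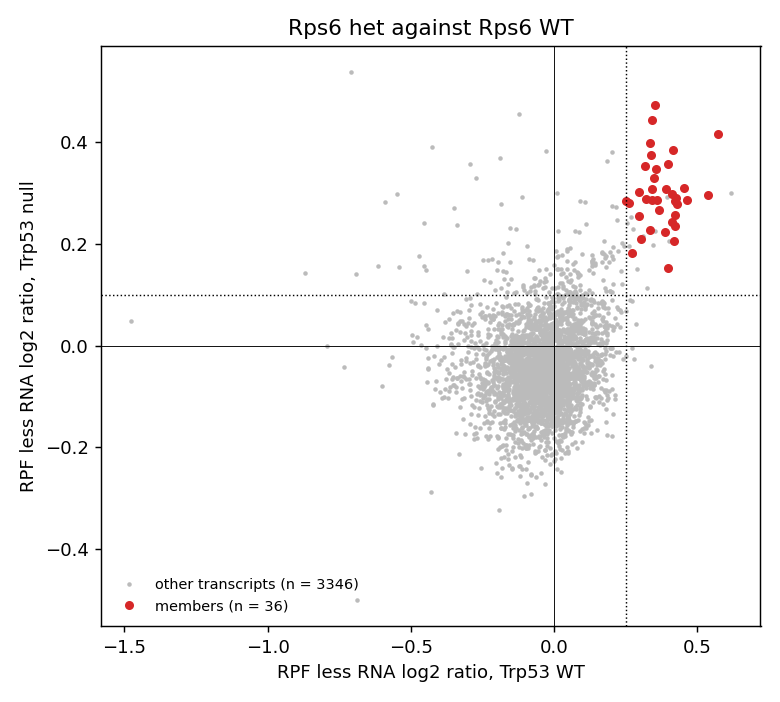
Each point is a transcript above the level threshold; the axes are the RPF log2 ratio less the RNA log2 ratio, Rps6 het to Rps6 WT, in Trp53 WT (x) and in Trp53 null (y), and dotted lines mark the thresholds of 0.25 and 0.1. The 36 members (red) lie from 0.15 to 0.47 on the y axis, and the 3346 other transcripts (grey) centre just below 0.

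Transcripts with a similar gap in Trp53 WT that missed the RPF threshold behaved in part alike. There were 22 such transcripts, with RPF less RNA at or above 0.25 but an RPF ratio below 0.3. Of these 22, 14 reached 0.1 in Trp53 null, against 6.71% of the 3382, and the median of the 22 was 0.18. The opposite class, in which footprints fell by the mirrored Trp53 WT thresholds while RNA stayed level, held 19 transcripts. Of these, 3 (15.8%) were at -0.1 or below in Trp53 null, against 21.7% of the 3382, and their median RPF less RNA went from -0.35 in Trp53 WT to -0.02 in Trp53 null. A class of 43 transcripts had RPF and RNA ratios both at or above 0.3 in Trp53 WT. Its median RPF ratio was 0.38 in Trp53 WT, close to that of the members, and 0.10 in Trp53 null, and 6 of the 43 had RPF less RNA of at least 0.1 there. Another 43 transcripts had RNA higher and RPF nearly level in Trp53 WT, and 9 of them (20.9%) had RPF less RNA of at least 0.1 in Trp53 null, against 6.71% of the 3382. These classes were set by the same libraries as the members, and the differences between classes were not tested.

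The fit across all transcripts gave the error of these changes. Counts were tested with edgeR's quasi-likelihood test on TMM-scaled libraries, and a transcript is said to be called where its Benjamini-Hochberg adjusted p is under 0.05. Since the thresholds used both comparisons of Rps6 het with Rps6 WT, the calls in them describe the members and support nothing further. In Trp53 WT, RPF was called higher for 36 of 36 members (13.2% of all transcripts tested, 22.2% of the 3382). The median log2 fold change was 0.46 (0.37 to 0.74), with a median standard error (SE) of 0.04. All 3 Rps6 het libraries were above all 3 Rps6 WT libraries for the same 36 (17.9% of the 3382). In Trp53 null, RPF was called higher for 30 of 36 (0.617% of all tested, 1.74% of the 3382). The median was 0.24 (0.12 to 0.39), and the 3 libraries of each genotype did not overlap for 33 (9.17% of the 3382).

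RNA of the members had been limited by the thresholds in Trp53 WT, and its calls there are given as a description. In Trp53 WT, edgeR called 6 of 36 higher, a share near that of all transcripts tested (13.1%) and of the 3382 (20.3%). The median was 0.07, with 32 of 36 positive. All 3 Rps6 het libraries were above the Rps6 WT libraries for 10, again near the share of the 3382 (22.6%), and below them for 1 (29.7%). With the replicate number as a block, 10 were called higher, near the share of the 3382 (23.6%). On library totals alone 26 of the 36 ratios were above 0, so the sign of the smallest changes depends on the scaling. Leaving out single libraries gave 1 to 7 calls. Each of the 6 libraries of this comparison, left out in turn, brought the count to 1, 2 or 3. Calls over all transcripts in those fits are not given here. In Trp53 null edgeR called 0 of 36 (0.0208% of all tested were called higher and 0.0486% lower), and DESeq2 called 0 higher. Still, 13 had an unadjusted p under 0.05 (528 of the 3382), and 34 of 36 were negative, with a median of -0.09. In 6 members all 3 Rps6 het libraries were below all 3 Rps6 WT libraries (4.67% of the 3382).

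TE was the RPF change less the RNA change in a model of all 24 libraries. It was called higher in Trp53 WT for 32 of 36 (0.497% of all tested, 1.71% of the 3382). The median log2 change was 0.38 (0.27 to 0.59), with a median SE of 0.07. In Trp53 null TE was called higher for 19 of 36 (0.178% of all tested, 0.71% of the 3382). The median was 0.32 (0.18 to 0.50), and all 36 had an unadjusted p under 0.05 (268 of the 3382). These 19 were among 25 transcripts called higher in the whole table. With the pool as a block, 36 were called in Trp53 WT (0.845% of all tested, 2.66% of the 3382). In Trp53 null the count was 30 (0.355% of all tested, 1.39% of the 3382). The Trp53 null count varied with the libraries in the fit, from 0 to 23 on leaving out 1 pool at a time. With only the libraries of the Trp53 null genotypes it was 0, again with 36 of 36 at an unadjusted p under 0.05. It was also 0 without replicate 3 of Rps6 het, Trp53 null or without replicate 1 or 2 of Rps6 WT, Trp53 null. It was 11 and 12 without replicates 1 and 2 of Rps6 het, Trp53 null and 11, 9 and 11 without replicates 1, 2 and 3 of Rps6 WT, Trp53 WT. The calls over all transcripts in these fits are not given here.

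The Rps6 change was also set between the Trp53 backgrounds as an interaction, by subtracting the change without Trp53 from the change with it. Because members had to clear a higher threshold in Trp53 WT, positive values are built into their choice, and the counts describe the members without testing a difference. For RPF, edgeR called 27 of 36 positive (3.94% of all tested, 7.75% of the 3382). The median difference was 0.23 (-0.02 to 0.37) on the log2 scale. For RNA edgeR called 7 of 36 (5.07% of all tested, 7.21% of the 3382). With the replicate number as a block it called 13 (11.6% of the 3382). The median RNA difference was 0.16 without the block, with 35 of 36 positive. For TE edgeR called 0 of 36 (0.0% of all tested called positive, 0.071% negative). The median difference was 0.08 (-0.13 to 0.24), with a median SE of 0.10 and 28 of 36 positive. The unadjusted p was under 0.05 for 1 member (282 of the 3382). With the pool as a block edgeR again called 0 (0.0071% of all tested called positive, 0.305% negative), and DESeq2 called 0. Of the members, 8 had an unadjusted p under 0.05 with that block (464 of the 3382). A TE difference of the size seen here was not detectable with this SE, and the missing calls do not show equal TE changes.

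The RPF interaction count fell to between 14 and 17 on leaving out any of 6 libraries, namely replicate 1 of Rps6 het, Trp53 null, replicates 1 and 2 of Rps6 het, Trp53 WT, replicates 2 and 3 of Rps6 WT, Trp53 null, and replicate 3 of Rps6 WT, Trp53 WT. The RNA interaction count fell to 0 without replicate 3 of Rps6 het, Trp53 null, replicate 1 or 3 of Rps6 het, Trp53 WT, replicate 1 or 2 of Rps6 WT, Trp53 null, or replicate 1 or 2 of Rps6 WT, Trp53 WT. It was 1 without replicate 3 of Rps6 WT, Trp53 WT and 11 without replicate 3 of Rps6 WT, Trp53 null. For the RPF interaction, calls over all transcripts in either direction also fell, from 857 to between 523 and 653 in the 6 fits above. For RNA the calls over all transcripts in these fits are not given here.

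**Figure D4:**
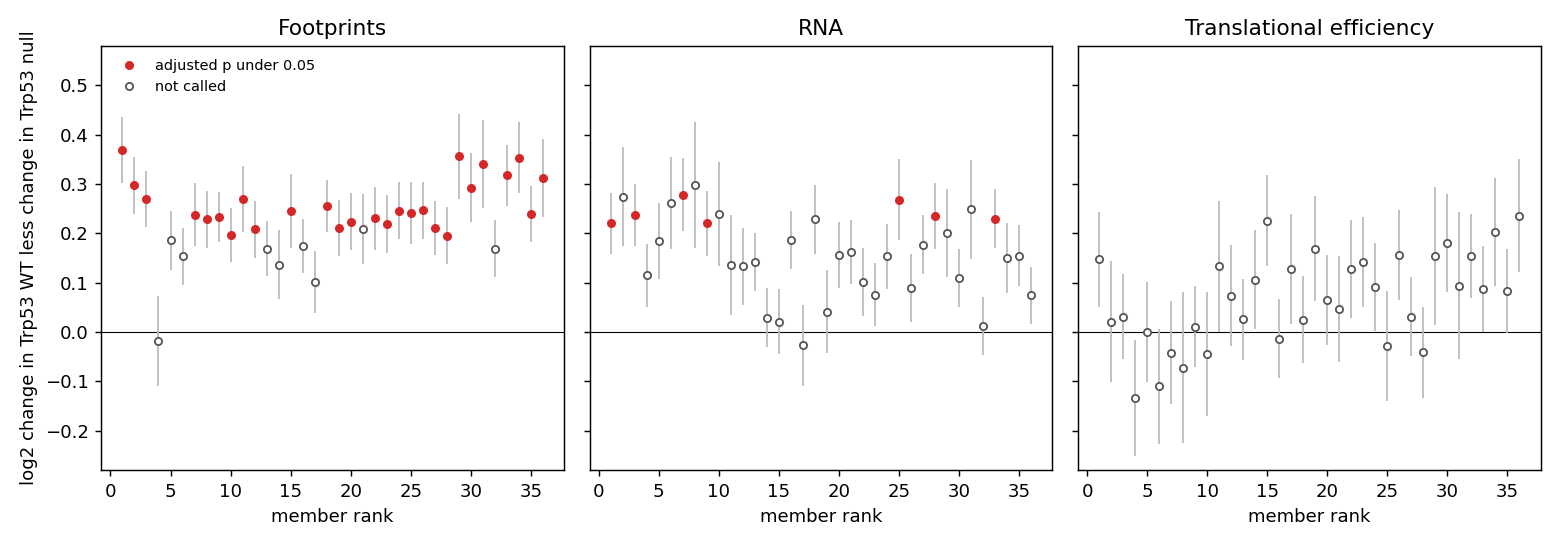
For each of the 36 members, ranked by the smaller of its 2 RPF less RNA ratios (x axis), the y axis is the log2 change with Trp53 minus the change without it, with SE, for RPF, RNA and TE; filled red points have an adjusted p under 0.05. The RPF panel holds 27 red points and the RNA panel 7, nearly all points of both lie above 0, and the TE panel holds no red point, with points on both sides of 0.

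Comparing Trp53 null with Trp53 WT within 1 Rps6 genotype asks what p53 loss did to the members, and no threshold used these comparisons, although they use the same libraries. In Rps6 WT forelimbs, RPF of the members was called in 0 of 36 by edgeR and by DESeq2 (0.0494% of all tested higher, 0.0247% lower). The median was 0.02, with 1 at an unadjusted p under 0.05 (109 of the 3382). The 3 libraries of each genotype overlapped for all 36 in RPF (3.7% of the 3382 were separated upwards, 4.73% downwards). Members' RNA was called in 0 of 36 by edgeR (0.0625% higher, 0.0555% lower) and in 2 by DESeq2 (share of all tested not given). Its median was 0.10, with 32 of 36 positive and 17 at an unadjusted p under 0.05 (709 of the 3382). For 12 of 36 all 3 Trp53 null libraries were above all 3 Trp53 WT libraries (7.16% of the 3382). TE was called in 0 of 36 (0.0% of all tested, also with the pool as a block), and DESeq2 also called 0. The median TE change was -0.08, with 5 at an unadjusted p under 0.05 (227 of the 3382).

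In Rps6 het forelimbs, the members' footprints were lower without Trp53 than with it. RPF was called lower for 34 of 36 (8.13% of all tested, 15.8% of the 3382) and higher for none. The median log2 fold change was -0.21 (-0.37 to -0.05). For 24 of 36 the Trp53 null libraries were all below the Trp53 WT libraries (14.8% of the 3382). The Rps6 het, Trp53 WT libraries in this comparison are the ones in which members were chosen for high footprints, also relative to RNA. A lower RPF or TE value in the other group is favoured by that choice. RNA was below 0 in 36 of 36 with a median of -0.06, and 1 was called lower by edgeR (7.1% of all tested, 11.9% of the 3382). The call was lost without replicate 1 of Rps6 het, Trp53 WT. For 8 of 36 the RNA libraries did not overlap (18.2% of the 3382). TE was below 0 in 36 of 36 with a median of -0.14 and 17 at an unadjusted p under 0.05 (326 of the 3382). It was called in 0 by edgeR and by DESeq2 (0.156% higher, 0.0071% lower over all tested). With the pool as a block it was called in 1 (0.0355% of all tested, lower).

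The member with the widest gap in both backgrounds, taken as the larger of the smaller ratios, was ENSMUST00000108430.9. Its RPF level was 282, 291 and 285 CPM in the control pools, against 479, 468 and 427 CPM in the Rps6 het pools with Trp53. In Trp53 null it was 281, 296 and 278 CPM for Rps6 WT, against 343, 368 and 385 CPM for Rps6 het. The Rps6 WT pools were alike whichever the Trp53 genotype, and the het pools stood apart from them and from each other. Its RNA was 359, 349 and 366 CPM against 398, 377 and 379 CPM in Trp53 WT, and 372, 357 and 346 CPM against 355, 329.9 and 348 CPM in Trp53 null, so that RNA separated only in Trp53 WT. By edgeR's quasi-likelihood test, the RPF log2 fold change of ENSMUST00000108430.9 was 0.74 ± 0.05 (SE; adjusted p = 7.3e-12) in Trp53 WT and 0.37 ± 0.05 (SE; adjusted p = 6.8e-05) in Trp53 null. RNA was called only in Trp53 WT, at 0.14 ± 0.04 (SE; edgeR adjusted p = 0.026). The differences between the backgrounds were 0.37 for RPF (edgeR adjusted p = 0.00086) and 0.22 for RNA (edgeR adjusted p = 0.037). TE of ENSMUST00000108430.9 was called in both, at 0.59 in Trp53 WT (edgeR adjusted p = 9.5e-06) and 0.45 in Trp53 null (edgeR adjusted p = 0.0051). It was the member whose RNA was called lower without Trp53 than with it among Rps6 het forelimbs, at -0.18 (edgeR adjusted p = 0.011).

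The member with the most control footprints was ENSMUST00000042235.14. Its RPF level was 4312, 4730.0 and 4297 CPM in the control pools, against 6325, 5965 and 5348 CPM in the Rps6 het pools with Trp53. In Trp53 null the groups came closer, at 4443, 4473 and 4912 CPM for Rps6 WT against 4733, 5351 and 5182 CPM for Rps6 het, and they overlapped. Its RNA lay between 4356 and 4582 CPM in all 12 libraries. The RPF change of ENSMUST00000042235.14 was called in Trp53 WT, at 0.46 ± 0.06 (SE; edgeR adjusted p = 5.9e-07). Without Trp53 it came to 0.15 ± 0.06 (SE; edgeR adjusted p = 0.24), and the difference between the backgrounds was 0.31 (edgeR adjusted p = 0.016; DESeq2 adjusted p = 0.095). Its TE was 0.42 in Trp53 WT (edgeR adjusted p = 0.0060) and 0.18 in Trp53 null (edgeR adjusted p = 0.88, and 0.46 with the pool as a block), the lowest TE change of any member in Trp53 null.

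Of the members with lower calls on loss of Trp53 in Rps6 het forelimbs, ENSMUST00000108430.9 had the smallest p, followed by ENSMUST00000051955.8 and ENSMUST00000054220.9. ENSMUST00000051955.8 had RPF levels of 311, 336 and 345 CPM in the control pools, against 431, 479 and 424 CPM in the Rps6 het pools with Trp53. In Trp53 null its RPF levels were 318, 357 and 339 CPM for Rps6 WT against 355, 391 and 358 CPM for Rps6 het, so that the groups overlapped. Its RNA stayed between 216 and 247 CPM in all 12 libraries. Among Rps6 het forelimbs, RPF of ENSMUST00000051955.8 was lower in Trp53 null by a log2 fold change of -0.32 ± 0.05 (SE; edgeR adjusted p = 7.3e-05). In TE this was the member called with the pool as a block, at -0.26 (edgeR adjusted p = 0.019), against an adjusted p of 0.31 without the block.

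ENSMUST00000054220.9 had more spread in its RNA than the others given by ID. Its RPF level was 958, 979 and 912 CPM in the control pools, against 1328, 1332 and 1210.3 CPM in the Rps6 het pools with Trp53. Without Trp53 it was 961, 986 and 979 CPM for Rps6 WT, against 1104, 1120.1 and 1127 CPM for Rps6 het. The 6 Rps6 WT libraries were lowest, the Trp53 null het libraries intermediate and the Trp53 WT het libraries highest, with no overlap. Its RNA was 684, 659.9 and 682 CPM and 748, 651 and 668 CPM in Rps6 WT and het with Trp53, and 796, 760.1 and 706 CPM and 716, 678 and 592 CPM without Trp53. RNA was thus highest on average in Rps6 WT, Trp53 null, where it overlapped both Rps6 het groups but lay above all control libraries. That difference from the control was not called (edgeR adjusted p = 0.25). The RNA change of -0.21 ± 0.07 (SE) from Rps6 WT to Rps6 het without Trp53 was not called either (edgeR adjusted p = 0.33). The RPF change of ENSMUST00000054220.9 was 0.50 in Trp53 WT (edgeR adjusted p = 8.6e-10) and 0.20 in Trp53 null (edgeR adjusted p = 0.0080). Its TE changes were close, 0.43 ± 0.09 (SE; edgeR adjusted p = 0.0080) in Trp53 WT and 0.41 ± 0.09 (SE; edgeR adjusted p = 0.041) in Trp53 null. The TE difference between the backgrounds was 0.02 ± 0.12 (SE; edgeR adjusted p = 1.0).

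**Figure D5:**
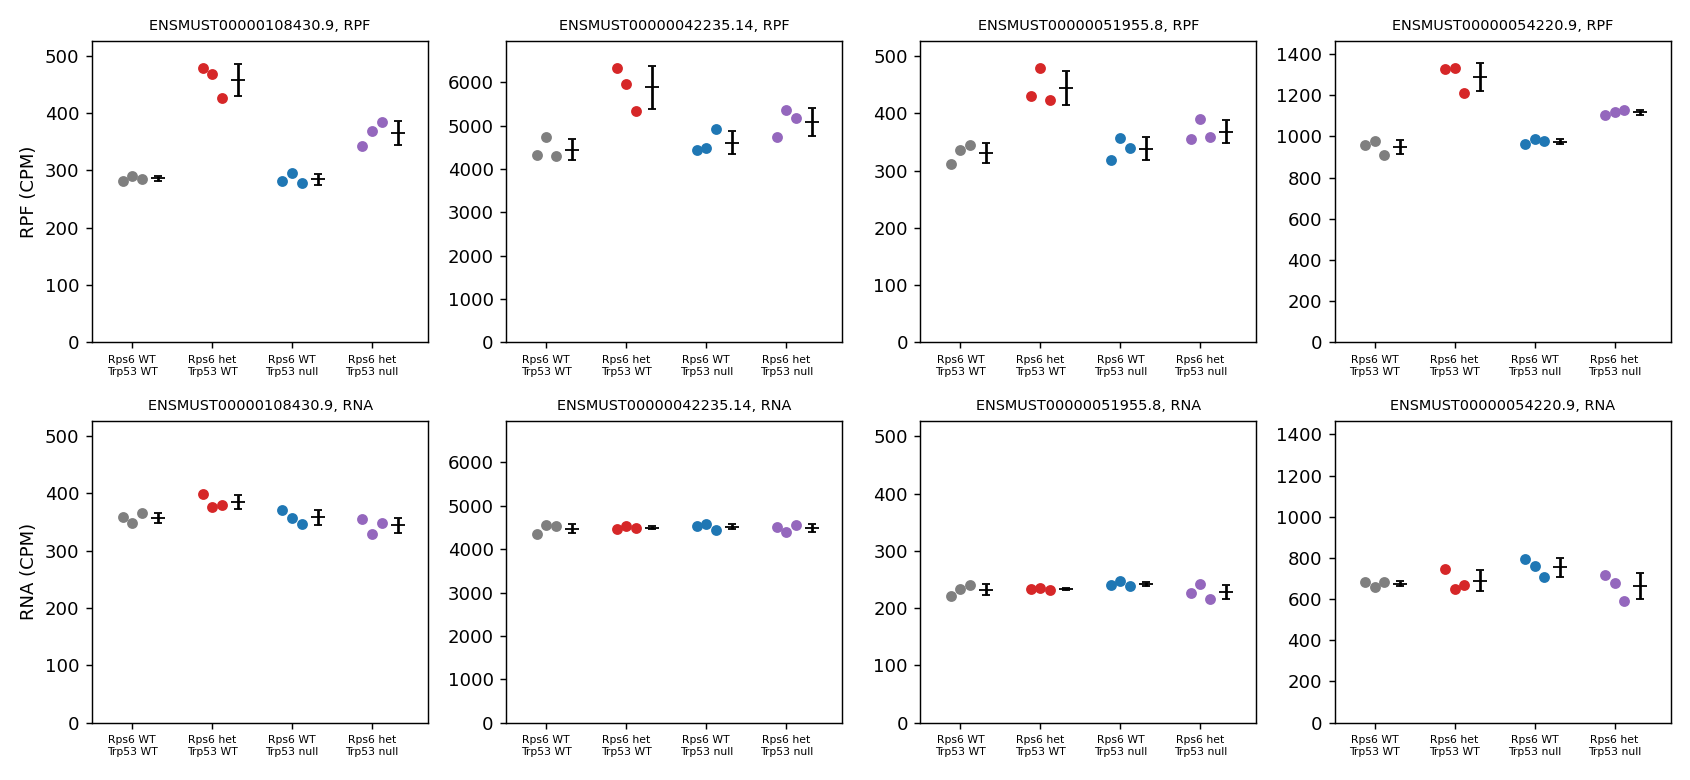
Levels in CPM (y axes from 0) of the 4 transcripts described above in each of the 12 RPF libraries (top) and 12 RNA libraries (bottom), by genotype; points are pools and bars the mean with SD of 3 pools. Footprints are highest in Rps6 het, Trp53 WT for all 4 (for ENSMUST00000042235.14, 5348 to 6325 CPM against 4297 to 4730.0 CPM in the control), and RNA differs far less between the genotypes.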

How the data were processed

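Ribosome-protected fragments (RPF) and RNA were sequenced from 12 pools of mouse E10.5 forelimbs, 3 for each of 4 genotypes. The authors deposited 1 table of raw counts per transcript, not normalized; totals were 7026056 to 16835045 in RPF and 14291854 to 29104669 in RNA libraries, so counting error is small for the members, and intervals and SEs from so few pools limit precision more. The submitters' processing notes name GRCm38 (mm10), Bowtie2 and UMI-tools, with no versions or roles; the annotation release, read filters and counting tool are not given in the sources used here. Reads of near-identical or overlapping genes could not be separated.

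Columns were matched to samples by their labels. Group mean CPM on library totals plus 0.5 gave the ratios of the rule. The members, lists and comparisons were chosen with earlier results of these data known. Tests used edgeR 4.0.16 in R 4.3.3 (glmQLFit, glmQLFTest) after filterByExpr (minimum count 10, minimum total 15) and TMM scaling within each kind of library; RNA and RPF were fitted apart over 4 genotypes, and TE in 1 model of 24 libraries. P-values were adjusted by Benjamini-Hochberg over all transcripts tested. The fitting code was tested on simulated data. Alternatives were DESeq2 1.42.0 and its size factors, no filter, replicate blocks, each pool left out, fewer genotypes in the fit, and, for the rule, TMM-scaled CPM, a pseudocount of 1 and a level of 25 CPM.

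The named transcripts were to be those with the largest smaller TE ratio, the highest control RPF level and the smallest p for Trp53 null against WT, and 4 IDs are printed because the IDs have no names here. The planned lists of genes by function and of cell type markers were not run for the same reason. RPF and RNA libraries of a pool share lysates per the labels' protocols, and their deviations from the group means correlated at 0.11 to 0.38 in the 12 pools over 12116 transcripts, so the pool was also fitted as a block for TE. Across the genotypes, same-numbered pools are different embryos, and their deviations correlated at -0.30 to 0.30 in RNA and -0.12 to 0.05 in RPF over these transcripts. Over the 3382 transcripts above the level threshold, the RNA correlations between Rps6 het and Rps6 WT pools were 0.16 to 0.36 in Trp53 WT and 0.18 to 0.62 in Trp53 null, within a range of -0.41 to 0.62 over all RNA comparisons, and RPF gave -0.11 to 0.24. Over 24 pairs of replicates, chi-square per degree of freedom of the counts was 1.81 to 18.4, so each library counted as a replicate. P-values measure the spread between these pools.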

Additional observations from a re-analysis of the deposited data

Results flagged for a closer look

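Members were chosen on both Rps6 changes, with higher thresholds in Trp53 WT, so the calls that follow are a description of that choice and no test of a difference. The interaction term of edgeR was the change with Trp53 minus that without. Its Benjamini-Hochberg adjusted p was under 0.05 for RPF in 27 of the 36 members and for RNA in 7. The shares called positive were 3.94% and 5.07% of all tested. Over the 3382 transcripts above the level threshold they were 7.75% and 7.21%. Among the transcripts given by ID, the log2 change with Trp53 minus the change without it was 0.37 for RPF and 0.22 for RNA of ENSMUST00000108430.9. For RPF it was 0.31 in ENSMUST00000042235.14, 0.35 in ENSMUST00000051955.8 and 0.30 in ENSMUST00000054220.9.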

How the results depend on the processing

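Over the settings other than leaving out a pool, 74 recomputed counts or shares over the members stayed within 1.5 times the reported value. Another 9 did not. Directions of the named transcripts were followed for the Rps6 changes, the RPF and RNA interactions and the RPF change on Trp53 loss in Rps6 het. None of these reversed under any setting. The TE interaction and the other Trp53 comparisons were not followed. On leaving out 1 pool at a time, TE of ENSMUST00000054220.9 reached 0.48 in Trp53 null and at most 0.47 in Trp53 WT. The sign of its small TE difference was therefore not stable. With the replicate number as a block across genotypes, RNA calls in Trp53 WT went from 6 to 10 and RNA interaction calls from 7 to 13. Over the 3382 transcripts above the level threshold, the shares called went from 20.3% to 23.6% and from 7.21% to 11.6%. The replicate number is shared by different embryos. The RNA deviations of same-numbered Rps6 het and WT pools correlated above 0.1 in every pair over the 3382 transcripts, but not in every pair over 12116. DESeq2 gave 11 RNA interaction calls and 32 TE calls in Trp53 null, and its shares over all transcripts are not given here. For RNA, Trp53 null against WT in Rps6 WT, DESeq2 and the fit without a filter each gave 2 calls in place of 0. Their shares over all transcripts are not given here either. With the pool as a block, TE calls in Trp53 null were 30 and those for Trp53 null against WT in Rps6 het 1; with only the libraries of the genotypes compared, a setting chosen after seeing the data, the former were 0. The cause of these shifts was not tested. Leaving out each of the 12 pools in turn (its RPF and RNA libraries together for the rule and for TE) gave 32 to 44 members, of which 97.2% to 100% of those meeting the Trp53 WT thresholds met that of Trp53 null. Calls were then 21 to 30 for RPF in Trp53 null, 26 to 35 for RPF and 0 to 1 for RNA in Trp53 null against WT in Rps6 het, and 14 to 33 for the RPF interaction. They were 1 to 7 for RNA in Trp53 WT, 0 to 11 for the RNA interaction, 22 to 33 for TE in Trp53 WT and 0 to 23 for TE in Trp53 null. Calls over all transcripts also varied, from 60 to 130 for RPF in Trp53 null and 513 to 925 for the RPF interaction. They were 1258 to 1874 for RPF in Trp53 null against WT in Rps6 het, and are not given for RNA and TE. On TMM-scaled CPM the rule gave 45 members, which held all 36; a pseudocount of 1 gave 36, and a level of 25 CPM gave 39. With 3 pools a group, TE differences near the SE of 0.10 between the Trp53 backgrounds were beyond reach.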
